A study of Saccharomyces cerevisiae with 26 samples.

Results

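The 40 genes described here encode the machinery of RNA polymerases I and III in the yeast Saccharomyces cerevisiae. They were taken by name from the known makeup of these enzymes, and all 40 had a spot among the 5606 genes on the array. Subunits of the enzymes account for 24 of them, with 7 of RNA polymerase I, 10 of RNA polymerase III and 7 shared ones. Transcription factors account for 15, with 7 that act with polymerase I and 8 that act with polymerase III, and the last member is the polymerase III repressor MAF1.

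RNA polymerase I transcribes the long precursor of the ribosomal RNAs, and RNA polymerase III makes transfer RNAs, the remaining small ribosomal RNA and other short RNAs. Polymerase I is brought to the ribosomal DNA by Rrn3, which works with the core factor and the upstream activation factor. Polymerase III is placed by TFIIIB, which TFIIIC recruits by binding inside the gene, and Maf1 represses it when nutrients are poor.

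The series followed galactose chemostat cultures of yeast after a passing pulse of glucose. On each of the 26 2-colour arrays, total RNA of 1 time after the pulse (Cy5) was set against total RNA of the culture at t=0 (Cy3), and values are the deposited log2 ratios. After 2 g/l glucose there were 14 arrays, with 4 early (3 to 10 min), 4 middle (15 to 45 min), 3 late (90 to 150 min) and 3 last (180 to 240 min). After 0.2 g/l there were 12, with 5 early (2 to 10 min), 4 middle (15 to 45 min) and 3 late (90 to 150 min). The yeast strain is not given in the labels. Galactose is the carbon source of the chemostats in both time courses, and no culture without a pulse is analysed here. Each time was 1 array of 1 culture per pulse, so an SD here is the spread between times of a window, pulse size and culture cannot be told apart, and all windows of a pulse are set against t=0 RNA of that culture. A value below 0 is lower than at t=0. In these bulk ratios a change in the cells present and in RNA per cell cannot be told apart.

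Between 5104 and 5602 genes and 37 to 40 members had a value per array. The arrays of 0.2 g/l at 45, 30 and 90 min were least like the rest of their windows across all genes (r = 0.123, 0.365 and 0.443). The median of all genes lay between -0.107 and 0.10 per array. Tests were made with limma on the 5372 genes that had at least 2 values in every window. A gene is called higher or lower where the Benjamini-Hochberg adjusted p over all these genes is under 0.05. Of the members 38 could be tested, and RPC53 and RRN3 could not.

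Most of the tested subunit genes rose within minutes of either pulse, while most of the factor genes did not pass the test. In the early window after 2 g/l, 17 of the 23 tested subunits were higher, with a median log2 ratio of 0.68, and RPA14, RPA190, RPC11, RPO31, RET1 and RPB5 did not pass. Of the 14 tested factors, 1 was higher and 2 were lower, with a median of 0.06. Over all 38 members 18 were higher and 3 lower, where 16.8% and 20.8% of all genes were called higher and lower and the median of all genes was -0.04. Following 0.2 g/l, 22 of 23 subunits were higher, with a median of 0.74, and 3 of 14 factors, with a median of 0.04. That made 25 members higher and none lower, where 18.1% and 11.7% of all genes were called higher and lower.

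The count after 2 g/l rested partly on the later arrays of the window. Without the array of 10 min 10 subunits and 1 factor were higher, and without that of 7 min 12 subunits and 1 factor. With the last arrays of the pulse in place of t=0 as the baseline, 3 subunits and 2 factors were higher early after 2 g/l, and 1 subunit and 2 factors early after 0.2 g/l. Robust regression, added after seeing the data, called 20 subunits and 5 factors higher and 3 factors lower early after 2 g/l. Most of the 14 tested factors thus passed in that fit. After 0.2 g/l it called 23 subunits and 4 factors higher and 1 factor lower. The shares of all genes called under the alternatives of this paragraph are not given here, so these counts cannot be set against all genes.

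By array, the median of the subunits climbed from the first sample on. It was 0.36, 0.52, 0.99 and 1.21 at 3, 5, 7 and 10 min after 2 g/l, and then 1.24, 1.10, 0.81 and 0.67 at 15, 20, 30 and 45 min. The 0.2 g/l pulse gave 0.24, 0.57, 0.80, 1.12 and 1.02 at 2, 4, 6, 8 and 10 min, and then 1.10, 0.95, 0.13 and -0.04 at 15, 20, 30 and 45 min. The subunit median thus stood near its highest value between 7 and 20 min after 2 g/l and between 8 and 20 min after 0.2 g/l. The factor median stayed between 0.01 and 0.25 through 45 min after 2 g/l, and between -0.16 and 0.16 through 45 min after 0.2 g/l.

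**Figure D1:**
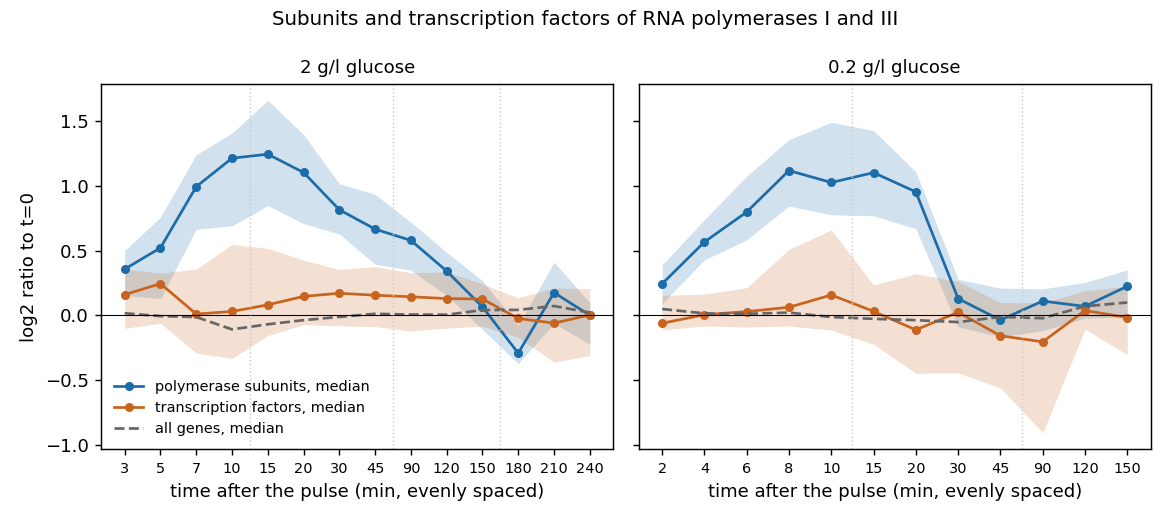
Median log2 ratio to t=0 of the polymerase subunits, of their transcription factors and of all genes (dashed) on each array, against time in min on an evenly spaced axis, with bands for the interquartile range over members and dotted lines between windows. The subunit median reaches 1.24 at 15 min after 2 g/l and 1.12 at 8 min after 0.2 g/l, while the factor median stays between -0.20 and 0.25 on all 26 arrays.

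The gap between the class medians was also taken per window. Subunits minus factors averaged 0.66 ± 0.50 early, 0.82 ± 0.30 in the middle, 0.20 ± 0.25 late and -0.01 ± 0.25 in the last window after 2 g/l (SD over 4, 4, 3 and 3 arrays). The gap after 0.2 g/l was 0.71 ± 0.29 early, 0.59 ± 0.55 in the middle and 0.20 ± 0.15 late (SD over 5, 4 and 3 arrays). Without the array of 90 min the late gap after 2 g/l was 0.076, and without that of 150 min it was 0.323. These are descriptions with no test, since both classes were set by name with earlier results known.

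Among the subunits, those of RNA polymerase I reached the highest ratios. Early after 2 g/l, 5 of 7 were higher with a median of 0.97, and early after 0.2 g/l all 7 were higher with a median of 1.13. RPA34, whose protein forms with Rpa49 a dimer that helps the enzyme elongate, had 0.79, 1.27, 1.72 and 1.81 at 3, 5, 7 and 10 min after 2 g/l. RPA34 after 0.2 g/l had 0.55, 1.11, 1.31, 1.66 and 1.54 at 2, 4, 6, 8 and 10 min. Every early array was above 0 for RPA34, and the later early arrays were higher than the first. Its means were 1.40 ± 0.47 after 2 g/l (SD, n = 4, limma adjusted p = 0.000131) and 1.24 ± 0.44 (SD, n = 5, limma adjusted p = 0.000146) after 0.2 g/l.

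RPA49, for the partner of Rpa34, had 0.48, 0.91, 1.49 and 1.98 at the same times after 2 g/l, and 0.39, 1.03, 1.56, 2.04 and 2.11 after 0.2 g/l. It climbed over each early window, and its early means were 1.21 ± 0.66 after 2 g/l (SD, n = 4, limma adjusted p = 0.00248) and 1.42 ± 0.72 (SD, n = 5, limma adjusted p = 0.000381) after 0.2 g/l. RPA12, for the subunit that aids RNA cleavage and termination, was close to these with 1.39 ± 0.60 after 2 g/l and 1.31 ± 0.47 after 0.2 g/l. RPA43, whose protein contacts Rrn3, averaged 0.97 ± 0.59 after 2 g/l and 1.13 ± 0.46 after 0.2 g/l, and its call after 2 g/l was lost without the array of 10 min (limma adjusted p = 0.0535).

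The genes for the large catalytic subunits were lower in the order. RPA135 averaged 0.84 ± 0.50 early after 2 g/l (limma adjusted p = 0.0223, but 0.0844 without the array of 7 min and 0.151 without that of 10 min) and 1.00 ± 0.71 after 0.2 g/l (limma adjusted p = 0.00472). RPA190, for the largest subunit, averaged 0.58 ± 0.50 after 2 g/l (SD, n = 4, limma adjusted p = 0.0952) and 0.74 ± 0.64 (SD, n = 5, limma adjusted p = 0.023) after 0.2 g/l. RPA190 lost the second call without the array of 6, 8 or 10 min (limma adjusted p = 0.0631, 0.119 and 0.13). RPA190 and RPA43 are neighbours with no gene between them in the reference annotation. Their ratios had a correlation of 0.893 over the 26 arrays, which share t=0 cultures and time, and RPA43 was above RPA190 on 22 of the 26. With the median of the other subunits the correlation was 0.981 for RPA43 and 0.897 for RPA190. That median is taken over many genes and includes the neighbour, so the values cannot tell whether neighbours are more alike, which was not tested.

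RPA14, for the stalk subunit that pairs with Rpa43, had the lowest early means of the polymerase I subunits. It had -0.07, -0.07, 0.21 and 0.52 at 3, 5, 7 and 10 min after 2 g/l, and 0.07, 0.35, 0.67, 0.74 and 0.27 at 2, 4, 6, 8 and 10 min after 0.2 g/l. The first 2 arrays after 2 g/l were thus just below 0 and all 5 after 0.2 g/l were above it. The early mean was 0.15 ± 0.28 after 2 g/l (SD, n = 4, limma adjusted p = 0.542) and 0.42 ± 0.28 (SD, n = 5, limma adjusted p = 0.0457) after 0.2 g/l. RPA14 lost the second call without the array of 4, 6, 8 or 10 min (limma adjusted p = 0.0807, 0.153, 0.179 and 0.0781), and also when each array was centred on its median or quantile normalized.

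**Figure D2:**
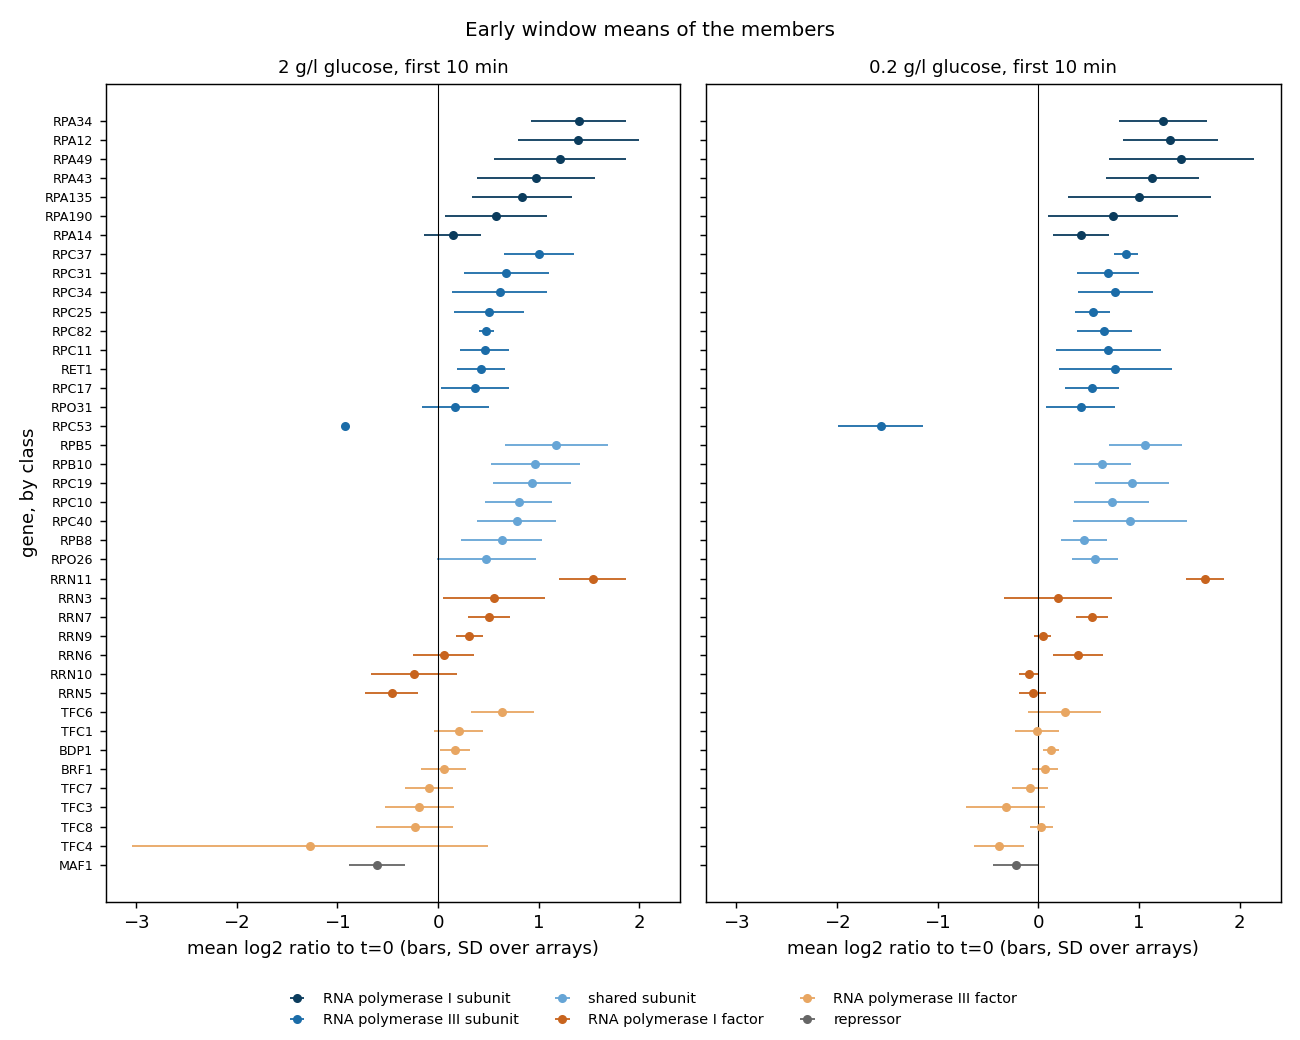
Mean log2 ratio to t=0 in the early window for each of the 40 members, with 2 g/l (4 arrays) on the left and 0.2 g/l (5 arrays) on the right, bars showing the SD over arrays and colours the class. The factor RRN11 lies farthest right in both panels, most subunits lie right of 0, the polymerase III factors lie on both sides of 0 (TFC4 at -1.27 with a wide bar after 2 g/l), and RPC53, with 1 value after 2 g/l and no bar there, lies left of 0 in both.

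RNA polymerase III subunits rose less on the median. Early after 2 g/l 6 of the 9 tested were higher with a median of 0.48, and early after 0.2 g/l all 9 were higher with a median of 0.69. RPC37, for a subunit of the dimer that serves termination and reinitiation, had 0.62, 0.80, 1.20 and 1.39 at 3, 5, 7 and 10 min after 2 g/l. RPC37 after 0.2 g/l had 0.78, 0.73, 1.02, 0.85 and 0.96 at 2, 4, 6, 8 and 10 min. It was high from the first array after 0.2 g/l and climbed after 2 g/l. The means were 1.00 ± 0.35 after 2 g/l (SD, n = 4, limma adjusted p = 0.000391) and 0.87 ± 0.12 (SD, n = 5, limma adjusted p = 0.000468) after 0.2 g/l.

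The polymerase III subunits that form the initiation subcomplex followed. RPC31 averaged 0.68 ± 0.43 and RPC34 0.61 ± 0.47 early after 2 g/l, and they averaged 0.69 ± 0.31 and 0.76 ± 0.37 after 0.2 g/l. RPC82 averaged 0.48 ± 0.07 after 2 g/l (limma adjusted p = 0.00464) and 0.66 ± 0.28 after 0.2 g/l (limma adjusted p = 0.000231), where its 2 min array (0.19) was well below the other 4 (0.66 to 0.85). After 2 g/l RPC31 lost the call without the array of 7 or 10 min (limma adjusted p = 0.0903 and 0.0633) and RPC34 without that of 10 min (0.101).

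The stalk genes RPC25 and RPC17 averaged 0.51 ± 0.35 and 0.36 ± 0.34 early after 2 g/l, and 0.54 ± 0.17 and 0.54 ± 0.27 after 0.2 g/l. All 4 values were called, but RPC17 after 2 g/l was not without the array of 7 or 10 min (limma adjusted p = 0.236 and 0.231). RPC11, for the cleavage subunit, averaged 0.46 ± 0.24 after 2 g/l (limma adjusted p = 0.151) and 0.70 ± 0.52 after 0.2 g/l (limma adjusted p = 0.0229, but 0.113 without the array of 8 min and 0.128 without that of 10 min).

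The catalytic core genes of polymerase III, RPO31 and RET1, were called after 2 g/l in the middle window but not in the early one. The difference between these windows did not pass the test for either gene. Middle minus early was 0.49 for RPO31 and 0.22 for RET1 (limma adjusted p = 0.247 and 0.758). RPO31 averaged 0.17 ± 0.33 and RET1 0.43 ± 0.24 early after 2 g/l, which did not pass the test (limma adjusted p = 0.392 and 0.0619), and 0.66 ± 0.26 and 0.65 ± 0.23 in the middle window, which did (limma adjusted p = 0.00118 and 0.00524). Early after 0.2 g/l RPO31 averaged 0.42 ± 0.34 (limma adjusted p = 0.0227) and RET1 0.77 ± 0.56 (limma adjusted p = 0.00126). The RPO31 call after 0.2 g/l was lost without the array of 6, 8 or 10 min (limma adjusted p = 0.0712, 0.1 and 0.13).

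RPC53, for the partner of Rpc37, stood apart from all other subunits. Its single spot had -0.93 at 5 min after 2 g/l and no value on the other 3 early arrays, and -1.31, -1.74, -2.15, -1.03 and -1.59 at 2, 4, 6, 8 and 10 min after 0.2 g/l. All 23 arrays with a value were below 0, including -1.33, -1.39 and -2.80 at 180, 210 and 240 min after 2 g/l, when the subunit median was back near 0. RPC53 was not tested because the early window after 2 g/l held 1 value. With 1 value per window allowed, 1 subunit was called lower early after 0.2 g/l and none early after 2 g/l. That setting also called 1 subunit lower in each later window of both pulses, where the reported fit called none lower. Its correlation with the median of the other subunits over these 23 arrays was -0.02, and whether the spot measures RPC53 was not tested.

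Of the 7 shared subunits 6 were higher early after 2 g/l (median of the 7, 0.80) and 6 early after 0.2 g/l (median 0.73). RPB5 was called in neither window in the reported fit. RPC19 and RPC40, which serve polymerases I and III and seed their assembly, averaged 0.94 ± 0.39 and 0.78 ± 0.39 after 2 g/l, and 0.94 ± 0.37 and 0.91 ± 0.57 after 0.2 g/l. Without the array of 10 min RPC40 lost its call after 2 g/l (limma adjusted p = 0.0624). Of the 5 that also serve polymerase II, RPB10 and RPC10 averaged 0.97 ± 0.44 and 0.80 ± 0.33 after 2 g/l, and 0.64 ± 0.28 and 0.73 ± 0.37 after 0.2 g/l.

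RPB5, for a shared subunit of all 3 enzymes, had the highest early means of the shared class. Still it was not called against t=0 in any window of the reported fit. It had 0.62, 0.87, 1.59 and 1.63 at 3, 5, 7 and 10 min after 2 g/l, and 0.55, 0.90, 1.06, 1.36 and 1.44 at 2, 4, 6, 8 and 10 min after 0.2 g/l. All 9 early arrays were above 0 and the values climbed in each window. The early means were 1.18 ± 0.51 after 2 g/l (SD, n = 4, limma adjusted p = 0.146) and 1.06 ± 0.36 (SD, n = 5, limma adjusted p = 0.157) after 0.2 g/l. In the middle window after 0.2 g/l RPB5 had a value of -6.20 at 30 min, beside 0.45, -0.14 and 0.33 at 15, 20 and 45 min, and this value enters the spread that limma uses for every window of the gene.

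RPO26 and RPB8 had the lowest early means of the shared class. RPO26 had 0.08, 0.02, 0.88 and 0.92 at 3, 5, 7 and 10 min after 2 g/l, and 0.27, 0.49, 0.46, 0.82 and 0.76 at 2, 4, 6, 8 and 10 min after 0.2 g/l. It was near 0 on the first 2 arrays after 2 g/l and high on the next 2. RPB8 had 0.58, 0.14, 1.12 and 0.68 after 2 g/l, and 0.18, 0.30, 0.46, 0.56 and 0.78 after 0.2 g/l. Both were called in both early windows. After 2 g/l RPO26 lost the call without the array of 7 or 10 min (limma adjusted p = 0.214 and 0.24) and RPB8 without that of 7 min (0.0714). After 0.2 g/l RPO26 lost it without 8 min (0.0503) and RPB8 without 6, 8 or 10 min (0.0673, 0.0884 and 0.129).

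Among the polymerase I factors, RRN11 had the highest mean of any member in both early windows. RRN11 encodes a core factor subunit. It had 1.23, 1.28, 1.75 and 1.88 at 3, 5, 7 and 10 min after 2 g/l, and 1.38, 1.72, 1.80, 1.82 and 1.57 at 2, 4, 6, 8 and 10 min after 0.2 g/l. It was already above 1 on the first array of each pulse, where the subunit medians were 0.36 and 0.24. The early means were 1.54 ± 0.33 after 2 g/l (SD, n = 4, limma adjusted p = 3.11e-06) and 1.66 ± 0.19 (SD, n = 5, limma adjusted p = 8.56e-08) after 0.2 g/l. Both calls held without each single array and under the other settings tried.

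In the middle window RRN11 had 1.64, 0.75, 0.62 and 0.81 at 15, 20, 30 and 45 min after 2 g/l, and 1.13, 0.34 and 0.02 at 15, 20 and 30 min after 0.2 g/l. At 20 min after 0.2 g/l it was below the subunit median of 0.95, and at 45 min after 2 g/l above that of 0.67. Its highest values were at 10 min after 2 g/l and 8 min after 0.2 g/l. Of the 24 subunits 1, 3, 14 and 4 had theirs at 7, 10, 15 and 20 min after 2 g/l, and 1, 5, 6, 9 and 2 at 6, 8, 10, 15 and 20 min after 0.2 g/l. The timing of RRN11 against the subunits was not tested. Middle minus early after 0.2 g/l was -1.16 ± 0.23 for RRN11 (SE, limma adjusted p = 0.00648), a call lost in a fit of the 2 windows alone.

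The other core factor genes moved less. RRN7, whose protein resembles the polymerase II factor TFIIB, averaged 0.50 ± 0.21 early after 2 g/l (limma adjusted p = 0.0766) and 0.54 ± 0.16 early after 0.2 g/l (limma adjusted p = 0.0439). The second RRN7 call was lost without the array of 4, 6, 8 or 10 min (limma adjusted p = 0.0899, 0.114, 0.105 and 0.129) and when arrays were centred on their medians. RRN6 averaged 0.06 ± 0.30 after 2 g/l and 0.39 ± 0.25 after 0.2 g/l (limma adjusted p = 0.765 and 0.015). Its call after 0.2 g/l was lost without the array of 8 or 10 min (limma adjusted p = 0.0801 and 0.0815).

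None of the genes of the upstream activation factor was called higher early. RRN5 had -0.42, -0.10, -0.65 and -0.66 at 3, 5, 7 and 10 min after 2 g/l, and -0.17, -0.15, -0.09, -0.01 and 0.16 at 2, 4, 6, 8 and 10 min after 0.2 g/l. It was below 0 on every early array after 2 g/l and close to 0 after 0.2 g/l. The early means of RRN5 were -0.46 ± 0.26 after 2 g/l (SD, n = 4, limma adjusted p = 0.0127, but 0.078 without the array of 7 min and 0.0855 without that of 10 min) and -0.05 ± 0.13 (SD, n = 5, limma adjusted p = 0.786) after 0.2 g/l. Against the last arrays of the pulse the RRN5 value after 2 g/l had the opposite sign, at 0.14 (limma adjusted p = 0.711).

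RRN10 had 0.18, -0.02, -0.33 and -0.80 at 3, 5, 7 and 10 min after 2 g/l, and -0.10, -0.10, -0.19, -0.15 and 0.07 at 2, 4, 6, 8 and 10 min after 0.2 g/l. It went down across the early arrays after 2 g/l and stayed near 0 after 0.2 g/l, and neither early mean passed the test (limma adjusted p = 0.336 and 0.719). RRN9 averaged 0.31 ± 0.13 after 2 g/l and 0.04 ± 0.08 after 0.2 g/l, which did not pass either (limma adjusted p = 0.539 and 0.94). RRN9 values of later windows lay far apart, and they enter the spread that limma uses for every window of the gene. RRN3, which was not tested, averaged 0.56 ± 0.51 after 2 g/l (SD, n = 4) and 0.20 ± 0.54 after 0.2 g/l (SD, n = 5).

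**Figure D3:**
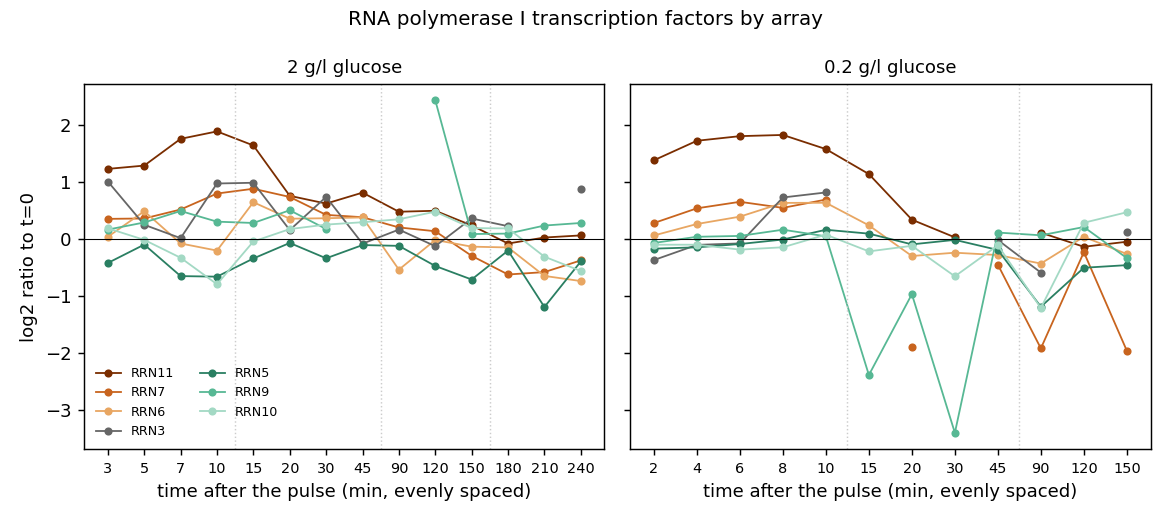
Log2 ratio to t=0 of the 7 polymerase I transcription factors on each array after 2 g/l (left) and 0.2 g/l (right), against time in min on an evenly spaced axis, with gaps where a value is missing and dotted lines between windows. RRN11 starts at 1.23 and 1.38 and leads the other factors on all 9 early arrays, and RRN7 and RRN9 each drop below -1.8 on some of the arrays after 0.2 g/l.

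Of the 8 polymerase III factors none was called higher early after either pulse, and 1, TFC4, was called lower early after 2 g/l. Their early means ranged from -1.27 to 0.64 after 2 g/l, with a median of -0.02, and from -0.39 to 0.26 after 0.2 g/l, with a median of 0.01. BRF1 and BDP1, which with the TATA-binding protein make up TFIIIB, averaged 0.05 ± 0.22 and 0.17 ± 0.15 early after 2 g/l, and 0.07 ± 0.13 and 0.13 ± 0.08 after 0.2 g/l. At an unadjusted p under 0.05 there were 3 of the 8 early after 2 g/l, whichever their direction, where 2491 of 5372 genes were. Early after 0.2 g/l there were none of the 8, where 2208 of 5372 genes were.

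TFC6, for a DNA-binding subunit of TFIIIC, had the highest early means of this class. It had 0.79, 0.24, 0.56 and 0.96 at 3, 5, 7 and 10 min after 2 g/l, and -0.12, -0.06, 0.27, 0.47 and 0.75 at 2, 4, 6, 8 and 10 min after 0.2 g/l. All 4 early arrays were above 0 after 2 g/l, and after 0.2 g/l it climbed from just below 0. The means were 0.64 ± 0.32 after 2 g/l (SD, n = 4, limma adjusted p = 0.107) and 0.26 ± 0.36 (SD, n = 5, limma adjusted p = 0.508) after 0.2 g/l. In the middle window after 0.2 g/l TFC6 had 0.99 and 0.81 at 15 and 20 min but -2.26 at 45 min.

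TFC4, for another TFIIIC subunit, had the lowest early means of the class. It had -0.28, -0.54, -3.92 and -0.35 at 3, 5, 7 and 10 min after 2 g/l, and -0.16, -0.61, -0.17, -0.69 and -0.32 at 2, 4, 6, 8 and 10 min after 0.2 g/l. These averages over 2 spots were below 0 on all 9 early arrays, and the 7 min array was far below the rest. The 2 spots disagreed at 7 min, with -7.74 and -0.09. At 2, 4 and 6 min after 0.2 g/l 1 spot was just above 0 (0.014, 0.013 and 0.046) and the other below (-0.344, -1.229 and -0.377). Both spots were below 0 at 8 and 10 min after 0.2 g/l. At 3 and 10 min after 2 g/l only 1 spot had a value. TFC4 was called lower early after 2 g/l at -1.27 ± 1.77 (SD, n = 4, limma adjusted p = 0.00917), and without the array of 7 min it was not, at -0.39 (limma adjusted p = 0.153). Over all arrays its spots differed by a median of 0.61 on the log2 scale.

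MAF1, the repressor of polymerase III, was the only member outside the factors called lower early after 2 g/l. It had -0.78, -0.24, -0.85 and -0.56 at 3, 5, 7 and 10 min after 2 g/l, and -0.05, -0.46, -0.44, -0.22 and 0.06 at 2, 4, 6, 8 and 10 min after 0.2 g/l. Every early array was below 0 after 2 g/l, and 4 of 5 were after 0.2 g/l. The means were -0.60 ± 0.28 after 2 g/l (SD, n = 4, limma adjusted p = 0.0261) and -0.22 ± 0.23 (SD, n = 5, limma adjusted p = 0.399) after 0.2 g/l. MAF1 lost the call without the array of 3, 7 or 10 min (limma adjusted p = 0.0876, 0.119 and 0.0743) with quantile normalization (0.0501), and with the last arrays of the pulse as baseline (0.366). The difference between the pulses for MAF1 did not pass the test either (-0.38, 2 g/l minus 0.2 g/l).

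In the middle window after 2 g/l the subunits were higher still on the median. Among 38 members 24 were higher and 1 lower, where 21.7% and 22.1% of all genes were called higher and lower. Subunits made up 21 of the 24, with a median of 0.95, and factors 3, with a median of 0.12. All 9 tested polymerase III subunits were now called. RPA34 had 2.40, 1.88, 1.26 and 1.09 at 15, 20, 30 and 45 min after 2 g/l, with the highest value of any member at 15 min. RPA34 averaged 1.66 ± 0.60 (SD, n = 4, limma adjusted p = 6.77e-06) and RPA43 averaged 1.53 ± 0.57 (limma adjusted p = 4.97e-05). Middle minus early after 2 g/l gave 0 called members, with 3 at an unadjusted p under 0.05, 1 with array weights and 2 with robust regression, where 2.1% of all genes were called.

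The 3 factors called higher in that window were all core factor genes, RRN11 at 0.95 ± 0.46 (limma adjusted p = 7.3e-05), RRN7 at 0.60 ± 0.24 (0.0312) and RRN6 at 0.43 ± 0.14 (0.0103). RRN7 lost the call without the array of 15, 20 or 30 min (limma adjusted p = 0.136, 0.104 and 0.0501) and RRN6 without that of 15 min (0.0717). TFC8, for a TFIIIC subunit, was lower, with -0.50, -0.40, -0.49 and -0.26 at 15, 20, 30 and 45 min. All 4 arrays were below 0, and the mean was -0.41 ± 0.11 (SD, n = 4, limma adjusted p = 0.00363).

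The middle window after 0.2 g/l held both high subunit values and values near t=0. Among 38 members 17 were higher and 3 lower, where 15.1% and 24.4% of all genes were called higher and lower. Subunits made up 15 of the 17, with a median of 0.63, and the factor median was -0.21. RPA34 had 1.68, 1.30, 0.53 and 0.36 at 15, 20, 30 and 45 min after 0.2 g/l, and RPA49 had 1.99, 1.59, 0.41 and -0.08. For both genes the first 2 arrays were well above the next 2. Most subunit calls of the window rested on 15 and 20 min, but RPA34 kept its call without each single array (highest limma adjusted p = 0.0264). Without the array of 15 min 5 subunits were called higher, and without that of 20 min 5. In a fit of this window alone limma called 0 members, with none of the subunits or factors past the threshold. The shares of all genes called in these fits are not given here, so whether they call fewer genes of any kind is not shown.

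Of the factors in that window BDP1 was higher, with 0.43, 0.59, 0.26 and 0.31 at 15, 20, 30 and 45 min (0.40 ± 0.15, SD, n = 4, limma adjusted p = 0.00116), and RRN11 was higher at 0.50 ± 0.57 (n = 3, limma adjusted p = 0.0361), which was lost without 15 min (0.496) or 20 min (0.0642). The 3 lower factors each held values far from the others. RRN9 had -2.39, -0.97, -3.40 and 0.11 at 15, 20, 30 and 45 min. RRN7 had -1.90 at 20 min and -0.45 at 45 min and no value at 15 or 30 min. BRF1 had -0.06, -0.46, -1.59 and 0.07, and its call (limma adjusted p = 0.0295) was lost without 20 min (0.0704) or 30 min (0.425). Without the array of 20 min RRN7 also lost its call (0.392).

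Middle minus early after 0.2 g/l gave 3 lower members, RRN7, RRN9 and RRN11, where 6.22% of all genes were called. RRN7 was at -1.71 ± 0.37 (SE, limma adjusted p = 0.01, but 0.168 without the array of 20 min) and RRN9 at -1.71 ± 0.49 (SE, limma adjusted p = 0.0414). RRN9 lost the call when any of the 5 early arrays or the array of 15 or 30 min was left out (limma adjusted p between 0.0599 and 0.146).

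**Figure D4:**
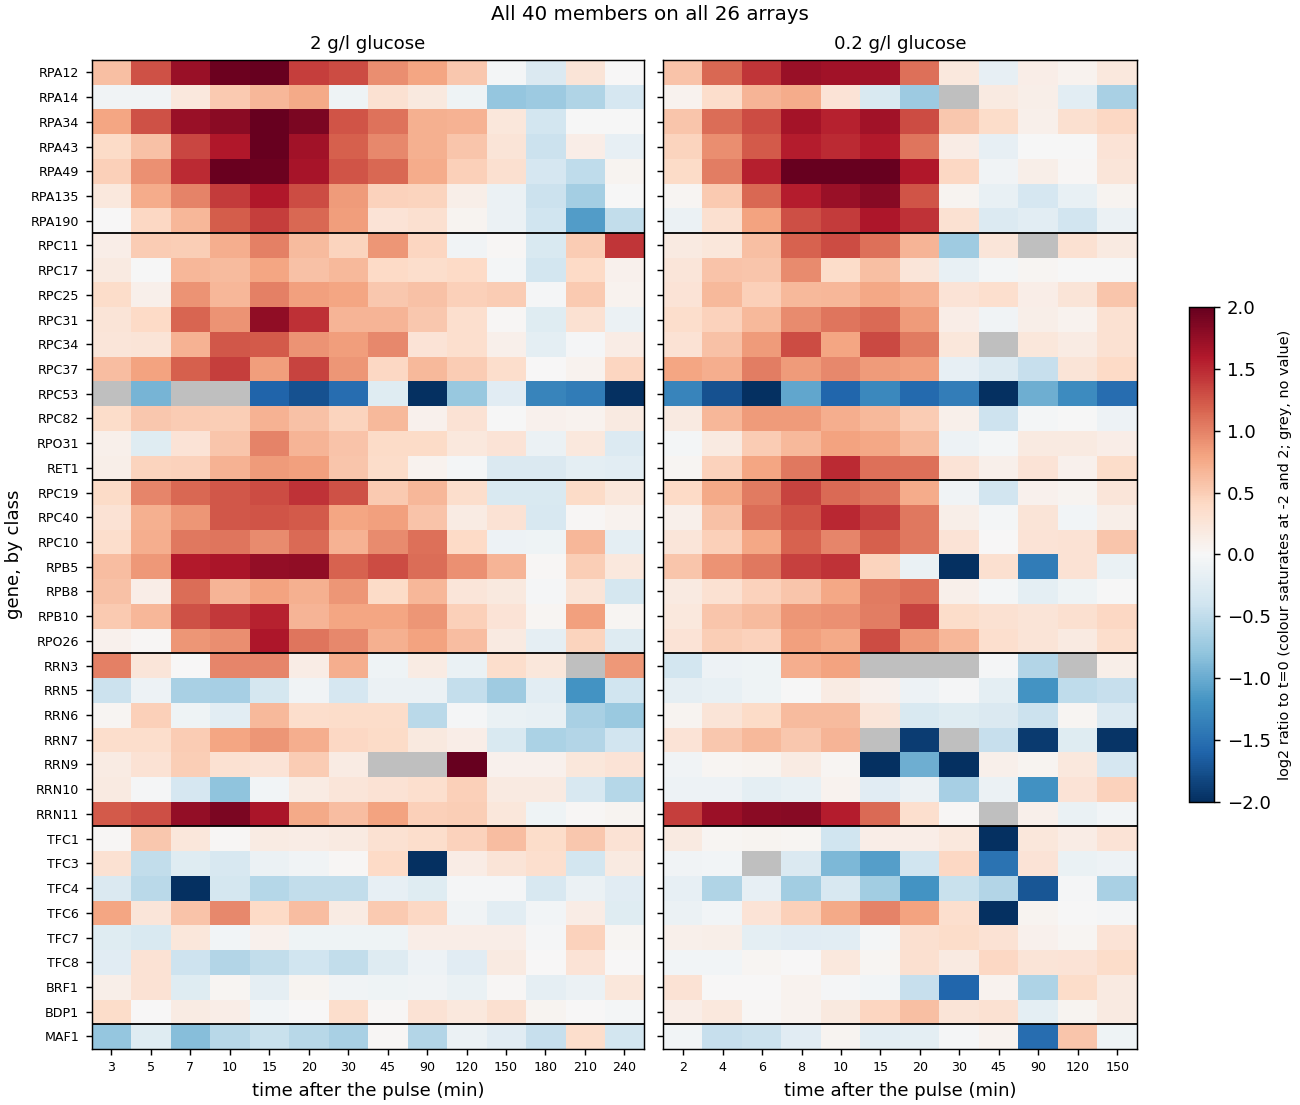
Log2 ratio to t=0 of all 40 members (rows, in the order polymerase I, polymerase III and shared subunits, polymerase I and III factors, repressor, with lines between classes) on the 14 arrays after 2 g/l (left) and the 12 after 0.2 g/l (right), with colour saturating at -2 and 2 and grey for no value. Most subunit rows, but not RPC53, are red from about 5 to 90 min after 2 g/l and to 20 min after 0.2 g/l, and strongly negative single values stand out at 30, 45 and 90 min after 0.2 g/l.

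In the late windows few members were called, although subunit ratios after 2 g/l were still mostly above 0. At 90 min after 2 g/l 23 of 24 subunits were above 0, and at 150 min 14 of 24. At an unadjusted p under 0.05 there were 9 of 38 members late after 2 g/l, where 1496 of 5372 genes were. By the adjusted test 1 member was higher and none lower after 2 g/l, where 9.03% and 5.51% of all genes were called higher and lower. That member was RPC25, with 0.59, 0.47 and 0.50 at 90, 120 and 150 min (0.52 ± 0.06, SD, n = 3, limma adjusted p = 0.0157). It lost the call without the array of 90, 120 or 150 min (limma adjusted p = 0.131, 0.0712 and 0.0621). The subunit median was 0.58, 0.34 and 0.07 at these times, against 0.11, 0.07 and 0.23 after 0.2 g/l.

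With array weights 15 subunits and 5 factors were called higher in the late window after 2 g/l. The shares of all genes called with array weights or robust regression are not given here. Late minus middle after 2 g/l gave 0 called members, where 4.26% of all genes were called. There were 16 of 38 members at an unadjusted p under 0.05, where 1056 of 5372 genes were. With array weights 19 members were called, and 14 with robust regression. Among the 16, RPA34 had a late minus middle difference of -1.11 ± 0.34 (SE, limma adjusted p = 0.0622). Late minus middle after 0.2 g/l also gave 0, where 1.9% of all genes were called. At an unadjusted p under 0.05 there were 7 of 38 members, where 1128 of 5372 genes were. With array weights 17 members were called, and 8 with robust regression.

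In the late window after 0.2 g/l 2 members were lower and none higher, where 3.93% and 3.61% of all genes were called lower and higher. RRN5 had -1.19, -0.51 and -0.46 at 90, 120 and 150 min (limma adjusted p = 0.00935), and RRN7 had -1.92, -0.24 and -1.96 (limma adjusted p = 0.00279). RRN5 lost the call without the array of 90 min (0.156), and RRN7 without that of 90 min (0.0508) or 150 min (0.068). In the last window after 2 g/l RRN5 and RRN6 were lower and no member was higher, where 2.42% and 5.96% of all genes were called lower and higher. RRN5 had -0.21, -1.20 and -0.40 at 180, 210 and 240 min (limma adjusted p = 0.024), and RRN6 had -0.15, -0.65 and -0.74 (0.0362). Without the array of 210 min neither was called (0.485 for RRN5 and 0.293 for RRN6), and RRN6 was not without that of 240 min (0.224).

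Between the pulses, no early difference of a member passed the test. Early 2 g/l minus 0.2 g/l gave 0 of 38, where 0.484% of all genes were called. At an unadjusted p under 0.05 there was 1 of 38 members, where 649 of 5372 genes were. With array weights 1 member was called, and 2 with robust regression. The differences of the subunits lay between -0.34 and 0.33 with a median of -0.13. At 10 min, which both pulses share, the median difference over 23 subunits was 0.08, with 12 above 0, and over all genes it was -0.15.

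At 30 and 45 min the subunits had come apart between the pulses. At 30 min the median difference (2 g/l minus 0.2 g/l) over 23 subunits was 0.68, with 22 above 0, against 0.13 over all genes. At 45 min the median difference over 23 subunits was 0.69, with all 23 above 0, against 0.08 over all genes. At 15 and 20 min it was 0.12 and 0.11 over 24 subunits, with 13 and 17 above 0. Each of these is 1 array against 1 array with no test, and the arrays of 0.2 g/l at 30 and 45 min are among those least like their window.

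In the test over the middle windows, 5 of 38 members differed between the pulses, where 14.8% of all genes did. RRN7 was at 1.78 ± 0.38, RRN9 at 1.98 ± 0.55, RRN6 at 0.58 ± 0.19, RPB5 at 2.89 ± 0.89 and TFC8 at -0.65 ± 0.15 (2 g/l minus 0.2 g/l, SE, limma adjusted p = 0.00505, 0.0207, 0.0379, 0.0312 and 0.00814). RPB5 had 1.76, 1.77, 1.18 and 1.31 at 15, 20, 30 and 45 min after 2 g/l, against 0.45, -0.14, -6.20 and 0.33 after 0.2 g/l. Its groups did not overlap, and without the array of 30 min after 0.2 g/l the difference was 1.29 (limma adjusted p = 0.0151). TFC8 had values from -0.50 to -0.26 after 2 g/l and from 0.03 to 0.41 after 0.2 g/l, without overlap, and its call held without each single array. In a fit of the 2 windows alone, or with time as a block, none of the 5 was called.

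Leaving out 1 array ended the other calls. RRN6 was not called without any of 7 of the 8 arrays (limma adjusted p between 0.0542 and 0.11), and RPB5 not without 15, 20 or 30 min after 2 g/l (0.0739, 0.0814 and 0.051). RRN9 was not called without 15 or 20 min after 2 g/l or 30 min after 0.2 g/l (0.0571, 0.078 and 0.0602), and RRN7 not without 20 min after 0.2 g/l (0.0973).

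In the late windows RRN7 was the 1 member that differed between the pulses, where 3.03% of all genes did. It had 0.20, 0.13 and -0.30 at 90, 120 and 150 min after 2 g/l, against -1.92, -0.24 and -1.96 after 0.2 g/l. The groups overlapped at 1 array each, and the difference was 1.38 ± 0.36 (2 g/l minus 0.2 g/l, SE, limma adjusted p = 0.0374). It was lost without 90, 120 or 150 min after 2 g/l (0.163, 0.138 and 0.0508) and without 90 or 150 min after 0.2 g/l (0.15 and 0.203).

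Over all 26 arrays, subunits followed one another more closely than factors followed them. The correlation of a subunit with the median of the other subunits had a median of 0.84 over the 24 subunits, from -0.02 for RPC53 to 0.98 for RPA43. For the 15 factors the correlation with the subunit median had a median of 0.13, from -0.54 for TFC8 to 0.73 for RRN11, with TFC6 (0.64), RRN6 (0.60) and RRN7 (0.53) next. These describe 21 to 26 arrays per gene that share 2 t=0 cultures and 2 time courses, so no p is given.

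Genes around the machinery were counted in 6 lists, to be read against the 16.8% higher and 20.8% lower of all genes early after 2 g/l and the 18.1% and 11.7% early after 0.2 g/l. Of the 7 subunits particular to RNA polymerase II, 3 were higher and 1 lower early after 2 g/l, and 2 higher and 1 lower early after 0.2 g/l, with medians of 0.26 and 0.44. The lower one was RPO21, for the largest subunit, at -0.84 ± 0.26 after 2 g/l (SD, n = 4, limma adjusted p = 0.00229) and -0.71 ± 0.38 (SD, n = 5, limma adjusted p = 0.00408) after 0.2 g/l. Of 20 tested polymerase II general factors, 2 were higher and 2 lower early after 2 g/l, and 3 were higher early after 0.2 g/l.

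Of 16 other tested proteins of polymerase I and III transcription, 2 were higher and 1 lower early after 2 g/l, and 4 higher early after 0.2 g/l. RNT1, for the RNase that cuts the ribosomal RNA precursor, was highest of them at 1.31 ± 0.49 after 2 g/l (SD, n = 4, limma adjusted p = 0.000131) and 1.21 ± 0.34 (SD, n = 5, limma adjusted p = 0.00011) after 0.2 g/l. Of 8 polymerase assembly and import genes, 2 were higher and 1 lower early after 2 g/l, and 3 higher and 1 lower after 0.2 g/l. Among these NPA3, for a GTPase of polymerase II import, averaged 0.55 ± 0.29 after 2 g/l and 0.75 ± 0.40 after 0.2 g/l.

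Of 24 tested regulators of ribosome production, 2 were higher and 7 lower early after 2 g/l, and 2 higher and 1 lower early after 0.2 g/l. The lists were not tested as sets, and the genes named are among the largest called estimates of each. TOR1, for a nutrient-signalling kinase, was among the 7 at -0.54 ± 0.13 (SD, n = 4, limma adjusted p = 0.00195), as was KOG1, for a subunit of the Tor1 complex, at -1.33 ± 0.67 (SD, n = 4, limma adjusted p = 0.00187). Of 9 tested RNase P and RNase MRP proteins, 1 was higher early after 2 g/l, and 3 higher and 1 lower early after 0.2 g/l. RPP1, a protein of both RNases, was higher after both pulses, at 0.87 ± 0.23 after 2 g/l and 0.66 ± 0.31 after 0.2 g/l.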

How the data were processed

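Total RNA of galactose chemostats was measured on 26 2-colour arrays, each with 1 time after a glucose pulse in Cy5 and t=0 in Cy3, per the labels. The deposited values are log2 ratios per spot, normalized by the authors; how they did so, and from which image software, is not given in the sources used here. Log base and direction (Cy5 over Cy3) were inferred from the values and the labels' dyes, and no array has the dyes exchanged. Spots of 1 gene were averaged. All 5606 gene identifiers of the array matched the reference annotation, used for names and neighbours only.

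The 7 window means were fitted together with limma 3.58.1 (lmFit, eBayes) in R 4.3.3 for the 5372 genes with at least 2 values per window, two-sided, with Benjamini-Hochberg adjustment over these genes and a threshold of 0.05. Samples of a window are different times of 1 culture, so p-values measure that spread only. The members and the lists were chosen with earlier results of these data known. All members may be named. Values on every array were given for the highest and lowest early mean of each class, for MAF1, for the largest difference between the pulses, and for other members where a call rests on single arrays (RPC25, RRN5, RRN6, RRN7, RRN9, BRF1, BDP1, TFC8), which were added after their values were seen. Other genes come from 6 lists, as the largest called estimates. Alternatives covered normalization, the genes and windows fitted, array weights, the baseline, time as a block and each array left out; robust regression and leaving out 3 arrays were added after seeing the data. Tables were prepared with Python 3.11.15, pandas 2.3.3 and numpy 2.4.6, and figures with matplotlib 3.10.9.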

Additional observations from a re-analysis of the deposited data

Results flagged for a closer look

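Values of members that stood far from the others of their window were found in 11 of 153 groups of 4 or 5 arrays (7.19%), where chance gives about 1 in 20. Far below the others lay RPB5 at -6.196 at 30 min after 0.2 g/l, where the other 3 arrays held -0.139 to 0.449. TFC1 had -3.969 at 45 min after 0.2 g/l beside 0.136 to 0.217 on the other 3. TFC4 had -3.918 at 7 min after 2 g/l beside -0.54 to -0.284. TFC1 also had -0.393 at 10 min after 0.2 g/l beside 0.038 to 0.181, and RPC82 had 0.186 at 2 min after 0.2 g/l beside 0.661 to 0.852.

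Above the others lay several 15 min arrays. After 2 g/l RPB10 had 1.535 at 15 min beside 0.676 to 0.79, RRN6 had 0.641 beside 0.352 to 0.374, and TFC7 had 0.082 beside -0.093 to -0.083. After 0.2 g/l RRN6 had 0.235 at 15 min beside -0.302 to -0.244, and BRF1 had 0.296 at 2 min beside -0.02 to 0.063. RPC53 had -0.242 at 45 min after 2 g/l beside -1.745 to -1.53.

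By limma, 5 members differed between the pulses in the middle window and 1 in the late window, as 2 g/l minus 0.2 g/l, of 38 members tested. Over all genes the shares called were 14.8% and 3.03%, and neither count of members is above its share. In a fit of the windows alone, or with time as a block, 0 members were called in either window, and the shares of all genes called in those fits are not given here. In the middle window these were RPB5 at 2.894, RRN9 at 1.979, RRN7 at 1.776, RRN6 at 0.581 and TFC8 at -0.65. In the late window it was RRN7 at 1.384. Pulse size and culture cannot be told apart in them, and the part of the arrays of 0.2 g/l at 30, 45 and 90 min in them was not tested beyond leaving them out.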

How the results depend on the processing

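The 105 single-member results that were called gave 1497 values under alternatives. Results that were not called are outside this tally, so calls gained under an alternative are not counted in it. Of the values, 1260 kept their direction and the call, and 235 kept the direction and lost the call. The other 2 reversed, both with the last window of the pulse as baseline (RRN5 early after 2 g/l, 0.139, and RRN7 in the middle after 0.2 g/l, 0.199). For 22 results the call held under every alternative tried. The cause of the changes was not tested, except that leaving out arrays or genes leaves fewer of them. The number of arrays limits the precision, and signal over background is not analysed here. No paired analysis was possible because replicate numbers only name arrays; time as a block stood in for it between the pulses.

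Member counts that moved over 1.5 times follow, with the reported count in parentheses and arrays left out as a range. The shares of all genes called under these alternatives are not given here. 2 g/l early (21): 5 with the last window as baseline, 12 to 22. 2 g/l late (1): 10 quantile, 8 windows alone, 2 with 1 value per window allowed, 21 array weights, 0 last window, 8 without 3 arrays, 10 robust, 0 to 1. 2 g/l last (2): 5 quantile, 0 windows alone, 4 without 3 arrays, 5 robust, 0 to 2. 0.2 g/l early (25): 3 last window. 0.2 g/l middle (20): 0 windows alone, 0 last window, 8 to 26. 0.2 g/l late (2): 6 quantile, 0 windows alone, 1 with values on all arrays, 7 array weights, 1 without 3 arrays, 5 robust, 0 to 2.

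For 2 g/l minus 0.2 g/l, early (0): 1 array weights, 2 robust. Middle (5): 3 quantile, 0 windows alone, 3 with values on all arrays, 0 time as a block, 15 robust, 2 to 14. Late (1): 0 windows alone, 0 with values on all arrays, 5 array weights, 0 time as a block, 0 without 3 arrays, 5 robust, 0 to 1. For 2 g/l middle minus early (0): 1 array weights, 2 robust. 2 g/l late minus middle (0): 1 centred, 7 windows alone, 2 with values on all arrays, 19 array weights, 7 without 3 arrays, 14 robust, 0 to 1. 0.2 g/l middle minus early (3): 0 windows alone, 0 with values on all arrays, 7 array weights, 6 without 3 arrays, 11 robust, 2 to 6. 0.2 g/l late minus middle (0): 1 centred, 2 quantile, 17 array weights, 10 without 3 arrays, 8 robust, 0 to 6.

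Subunits minus factors after 2 g/l in the last window was -0.011, and from -0.134 to 0.116 with each array left out, reversing without 180 min. It kept its sign in all other windows and alternatives.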

Other observations

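At 90 min after 0.2 g/l several members held low values. RRN10 was at -1.21, RRN5 at -1.19, TFC4 at -1.71, MAF1 at -1.52 and RPB5 at -1.40 on that array. At 120 min after 2 g/l RRN9 was at 2.43, with 0.08 at 150 min and no value at 90 min. TFC3 was at -2.39 at 90 min after 2 g/l, with 0.14 and 0.25 at 120 and 150 min. RPC11 was at 1.43 at 240 min after 2 g/l, with -0.31 and 0.51 at 180 and 210 min. These genes were named after their values were seen.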
